A study of Mus musculus with 12 samples.

Results

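The antiviral genes Ifit1, Ifit2, Ifit3, Isg15, Usp18, Plscr1, Oas1a and Oasl2 were examined in mouse thymocytes with the HY or the OT1 T cell receptor. Members were taken by the gene symbol that the array's annotation gives a probe set, a group of oligonucleotides that reads 1 transcript. Of the 8 genes, 6 had a probe set, 1 each among 12422 on the array without its control probe sets (8251 named genes), and all 6 passed the filter on dim probe sets, which is a filter on the mean over all 12 arrays. Oas1a and Oasl2 had no probe set under those symbols and are not analysed here. The genes were selected on their measured intensities in these same 3 groups, so their levels and group differences are given as descriptions.

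Thymocytes came from reaggregate thymic organ culture (RTOC), in which thymocytes and thymic stroma are recombined in culture, and RNA was taken at day 6. HY_high denotes thymocytes with the HY receptor, which recognises a male peptide encoded by Smcy, cultured with Smcy peptide at 1e-05 M (4 arrays). HY_low denotes the same receptor with Smcy peptide at 1e-07 M (4 arrays). OT1 denotes thymocytes with the OT1 receptor for an ovalbumin peptide, with no peptide named (4 arrays). Both receptors are class I restricted, and all 3 groups share the culture and the day. The labels give no strain, sex, age, source of stroma, sorting or pooling, and do not say that arrays of a group came from separate cultures, so standard errors measure only the spread between these arrays. The titles use the letters aa for HY_high and ab for HY_low, which are not explained, so peptide dose cannot be told apart from what they mark. Between HY and OT1 cells receptor and peptide differ together.

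These genes are classical targets of type I interferon. The interferon receptor activates the kinases Jak1 and Tyk2, and signalling then reaches the interferon-stimulated response element in target promoters, which Irf9 helps to bind. Ifit proteins bind viral RNA, Isg15 is a ubiquitin-like protein that is attached to other proteins, Usp18 removes Isg15 and also dampens signalling at the interferon receptor, and Plscr1 encodes an interferon-induced phospholipid scramblase. Stromal and dendritic cells of the thymic medulla are known to make type I interferon without infection.

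Upstream sequences are shown for 4 measured members because these stretches hold a match to an interferon-related motif, the response element in Ifit1, Ifit3 and Isg15 and a gamma-activated site in Plscr1. They are given 5′ to 3′ on the gene's strand, end at the base before the annotated transcript start, and were taken from RefSeq on build GRCm38.p6. Capitals mark matches to the core of the interferon-stimulated response element, GAAA, any 2 bases and GAAA on one strand or TTTC, any 2 bases and TTTC on the other, or, in Plscr1, to a gamma-activated site, TTCNNNGAA, which reads the same on both strands. The stretches lie at chr19:34640769-34640888 on the plus strand for Ifit1, chr19:34583359-34583528 on the plus strand for Ifit3, chr4:156200819-156200968 on the minus strand for Isg15 and chr9:92250074-92250193 on the plus strand for Plscr1.
Ifit1: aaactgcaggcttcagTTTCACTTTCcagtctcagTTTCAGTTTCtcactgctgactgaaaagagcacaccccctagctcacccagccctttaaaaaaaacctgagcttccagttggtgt
Ifit3: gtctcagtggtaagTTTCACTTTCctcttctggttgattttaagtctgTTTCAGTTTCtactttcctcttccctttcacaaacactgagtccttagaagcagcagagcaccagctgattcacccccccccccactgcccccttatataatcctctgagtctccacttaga
Isg15: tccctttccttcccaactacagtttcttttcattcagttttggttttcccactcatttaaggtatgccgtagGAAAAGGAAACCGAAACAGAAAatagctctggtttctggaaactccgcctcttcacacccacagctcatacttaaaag
Plscr1: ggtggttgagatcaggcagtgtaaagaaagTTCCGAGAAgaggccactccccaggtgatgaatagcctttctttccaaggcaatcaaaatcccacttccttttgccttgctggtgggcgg

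Ifit1 and Ifit3 each held 2 matches to the response element, TTTCACTTTC followed by TTTCAGTTTC, which began 104 and 85 bases before the start in Ifit1 and 156 and 122 bases before it in Ifit3. Isg15 held 3 overlapping matches that began 78, 72 and 66 bases before the start. Among all 32851 promoters of the table, 2.98% had a match in the 250 bases before the start, against 4 of the 8 promoters listed for the members (Ifit1, Ifit3, Isg15 and Oas1a). The gamma-activated site was found in 3 of those 8 (Plscr1, Oas1a and 1 of the 2 promoters of Ifit2), against 7.02% of all promoters. The promoters of Plscr1, Ifit2 and Oasl2 had no match to the response element in this window, and the table lists none for Usp18. Of the promoters of other interferon response genes, 32 of 114 matched. A match is a description of the letters only.

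Ifit1, Ifit2 and Ifit3 are neighbours on chromosome 19 in the order Ifit2, Ifit3, Ifit1 of the RefSeq assembly, with the related genes Ifit1bl1, Ifit3b and Ifit1bl2 between Ifit3 and Ifit1. The files do not say whether the Ifit probe sets also read these relatives. Isg15, Usp18 and Plscr1 lie on chromosomes 4, 6 and 9.

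The deposited values are intensities on a linear scale with a lowest value of 1. Array medians lay between 3.33 and 3.97, and the share of values at 1 ran from 3.003% to 22.5% of an array. Of 11 measured thymocyte markers, Zap70, Thy1, Cd8a, Cd3g, Cd3d and Cd3e were above 8 on all 12 arrays. Ptcra lay under 8 on all 12, Cd4 on 10, Rag1 on 9 and Lat on 2. Cd8b1 had a geometric mean of 4.52 in HY_high, 644 in HY_low and 693 in OT1. Thy1 had 234, 555 and 541 in the same order, and Cd8a 157, 339 and 340. Of the 11, 2 had a higher geometric mean in HY_high than in HY_low, and 3 a higher one than in OT1. The summed intensity of the 11 ran from 1112 to 2148 in HY_high, from 2453 to 3734 in HY_low and from 2538 to 3063 in OT1. In RNA of whole samples, fewer cells of a type and less RNA per cell cannot be told apart.

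All 6 genes had their highest geometric mean in HY_high, an intermediate one in HY_low and the lowest one in OT1. OT1 array 1 stood apart from the other OT1 arrays for most of them, as described below, and results are given with and without it.

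Usp18, the protease that removes Isg15 from its substrates, had intensities of 123, 81.8, 137 and 48.8 on HY_high arrays 1 to 4. The values were 66.9, 28.7, 107 and 33.8 on HY_low arrays 1 to 4, and 65.3, 3.05, 11.4 and 3.40 on OT1 arrays 1 to 4. All 4 HY_high arrays and all 4 HY_low arrays lay above OT1 arrays 2, 3 and 4, and only OT1 array 1 reached into the range of the HY cells. Geometric means were 90.6 in HY_high, 51.4 in HY_low and 9.37 in OT1 (SD 0.68, 0.88 and 2.06 log2 units, n = 4 each).

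Isg15, the ubiquitin-like modifier itself, had intensities of 138, 62.0, 73.5 and 30.6 on HY_high arrays 1 to 4. On HY_low arrays 1 to 4 it was at 160, 63.1, 49.0 and 14.6, and on OT1 arrays 1 to 4 at 147, 3.14, 11.8 and 6.66. The 3 arrays numbered 1 were the highest of their groups and differed little from each other, while OT1 arrays 2, 3 and 4 lay below every HY array. Geometric means were 66.2 in HY_high, 51.9 in HY_low and 13.8 in OT1 (SD 0.89, 1.42 and 2.41 log2 units), and the HY_high range lay within the HY_low range.

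Ifit3, which encodes an antiviral protein that binds partner Ifit proteins, had intensities of 22.2, 51.3, 80.3 and 15.0 on HY_high arrays 1 to 4. It was at 35.2, 31.4, 21.2 and 7.30 on HY_low arrays 1 to 4 and at 68.5, 3.48, 4.09 and 2.20 on OT1 arrays 1 to 4. OT1 array 1 was higher than all HY_low arrays, and the other OT1 arrays were lower than all HY arrays. Geometric means were 34.2 in HY_high, 20.3 in HY_low and 6.81 in OT1 (SD 1.10, 1.03 and 2.25 log2 units).

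Ifit1, which binds viral RNA that lacks the host's cap methylation, had intensities of 7.77, 18.4, 72.4 and 19.8 on HY_high arrays 1 to 4. HY_low arrays 1 to 4 had 11.3, 13.03, 42.4 and 6.61, and OT1 arrays 1 to 4 had 12.6, 2.85, 4.75 and 1.41. Array 3 was the highest of both HY groups, and array 1 was the lowest of HY_high but the highest of OT1. Ifit2, a further RNA-binding member of the family, was dim throughout, with 5.60, 13.2, 25.2 and 8.42 on HY_high arrays 1 to 4. It had 7.47, 5.83, 7.57 and 3.28 on HY_low arrays 1 to 4 and 7.05, 3.97, 1.35 and 1.28 on OT1 arrays 1 to 4. All 8 HY_low and OT1 values of Ifit2 lay under 8, as did 1 HY_high value. Geometric means of Ifit1 were 21.3 in HY_high, 14.2 in HY_low and 3.94 in OT1, and those of Ifit2 were 11.2 in HY_high, 5.73 in HY_low and 2.64 in OT1.

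Plscr1, the scramblase gene, had intensities of 15.0, 14.6, 20.3 and 24.1 on HY_high arrays 1 to 4. It was at 7.64, 2.06, 4.60 and 6.62 on HY_low arrays 1 to 4, and at 4.86, 1, 4.90 and 4.79 on OT1 arrays 1 to 4. Every HY_high array lay above every HY_low and OT1 array, and all HY_low and OT1 values lay under 8. The HY_low and OT1 ranges overlapped. Geometric means were 18.1 in HY_high, 4.68 in HY_low and 3.27 in OT1 (SD 0.35, 0.85 and 1.14 log2 units).

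**Figure D1:**
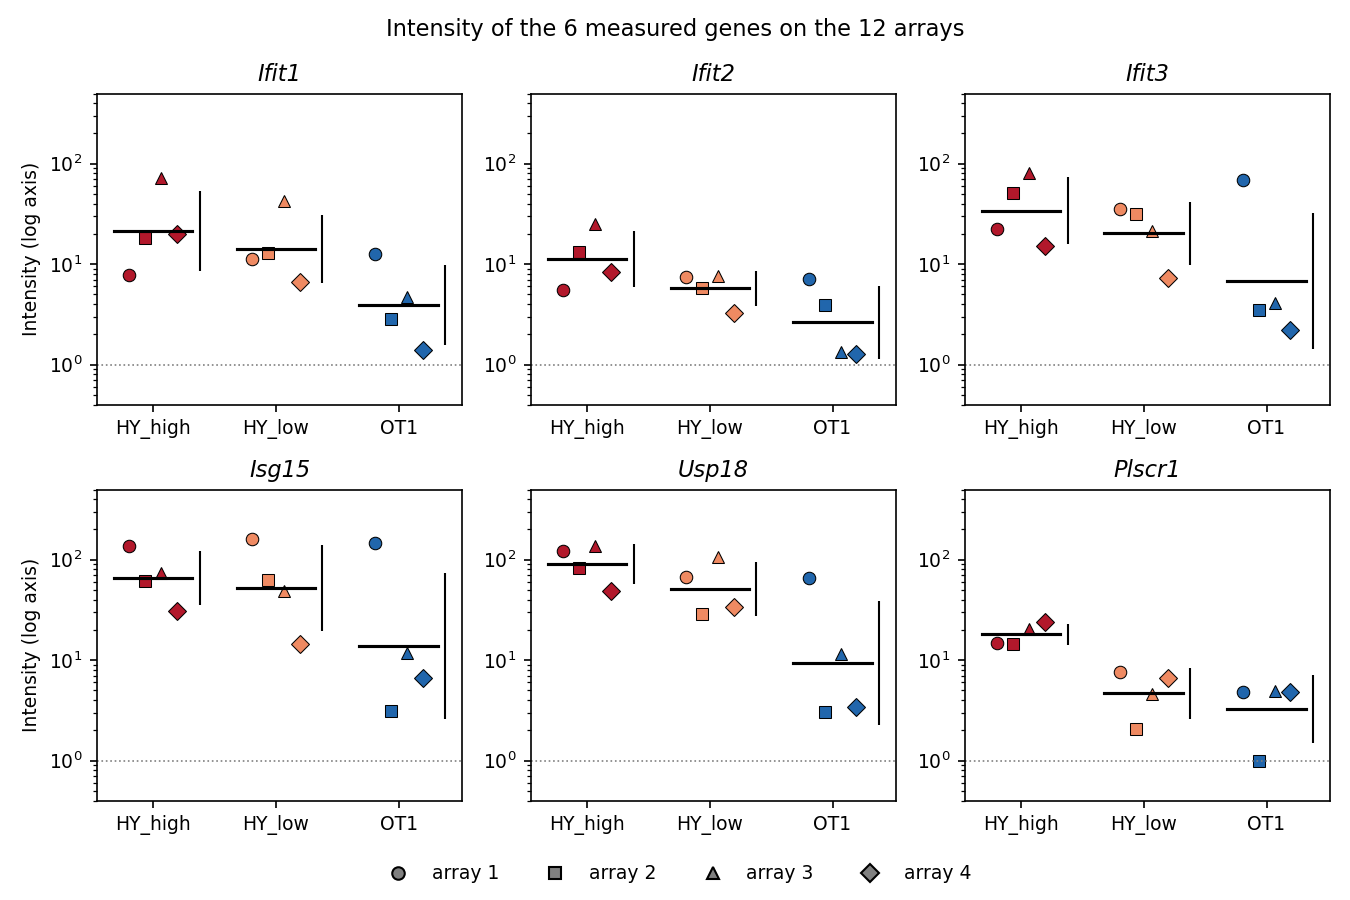
Intensity (log axis) of Ifit1, Ifit2, Ifit3, Isg15, Usp18 and Plscr1 on the 4 HY_high, 4 HY_low and 4 OT1 arrays, with the marker's shape giving the array number, horizontal lines the geometric means, vertical lines 1 SD on the log2 scale to either side and the dotted line the lowest value of the table, 1. OT1 array 1 (circle) lies at 147 for Isg15 and 68.5 for Ifit3, among the HY values, and the HY_high values of Plscr1 start at 14.6, above all others.

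In the comparison of HY_high with HY_low, which sets the higher against the lower dose of the agonist peptide, Plscr1 showed the greatest difference among the 6 genes. Its geometric mean was 3.86-fold higher in HY_high (log2 difference 1.95 ± 0.57 SE, n = 4 per group). The log2 differences of Ifit2 (0.96 ± 0.61), Usp18 (0.82 ± 0.77), Ifit3 (0.75 ± 0.88), Ifit1 (0.58 ± 0.74) and Isg15 (0.35 ± 0.93) were smaller, and those of Ifit3, Ifit1 and Isg15 were less than these standard errors. With the number as a block the standard errors were 0.64 for Ifit3, 0.55 for Ifit1 and 0.50 for Isg15, of which Isg15's alone exceeded its difference. The median over the 6 genes was 0.79, beside 0.01 over all 8695 tested probe sets. Without HY_low array 4 the difference of Isg15 was -0.26, without HY_high array 3 that of Ifit1 was -0.01, and with intensities under 8 set to 8 that of Plscr1 was 1.18.

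None of the 6 genes passed an adjusted p of 0.05 in limma between HY_high and HY_low, where 0.0115% of all tested probe sets passed as higher, and 1 of the 6 had an unadjusted p under 0.05 (background 1.9%). With the array number as a block 1 passed, Plscr1 (background 0.23%), and it was also the 1 gene whose groups did not overlap (background 1.24%). Plscr1 also passed with the floor at 8 (background 0.0482%). Higher values in HY_high within 4 of 4 numbers were found for Usp18 and Plscr1 (background 9.81%). The genes were chosen with this comparison known, so nothing is read from these counts.

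In the comparison of HY_low with OT1, Usp18 had the greatest difference, with a geometric mean 5.48-fold higher in HY_low (log2 difference 2.45 ± 0.77 SE, n = 4 per group). Isg15 had 1.91 ± 0.93, Ifit1 1.85 ± 0.74, Ifit3 1.58 ± 0.88 and Ifit2 1.12 ± 0.61. Plscr1 had the smallest difference, 0.52 ± 0.57, which was -0.05 without OT1 array 2, where it sat at the lowest value of the table. The median over the 6 genes was 1.72, beside 0.01 over all tested probe sets. With intensities under 8 set to 8 the differences of Ifit2 and Plscr1 became 0.00, since both groups then lie at the floor, whereas that of Usp18 was 1.80 and that of Isg15 1.51. Without OT1 array 1 the differences were 3.39 for Usp18, 3.05 for Isg15, 2.69 for Ifit3, 2.41 for Ifit1, 1.59 for Ifit2 and 0.71 for Plscr1, with a median of 2.55.

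None of the 6 passed limma's adjusted p of 0.05 between HY_low and OT1 (background 0.0115%), 2 had an unadjusted p under 0.05 (background 1.55%), and none passed with the number as a block (background 0.0805%). The groups overlapped for all 6 (groups without overlap made up 0.886% of tested probe sets). Ifit2, Isg15 and Usp18 were higher in HY_low within 4 of 4 numbers (background 9.73%). Without the 3 arrays numbered 1, and with the block, 3 genes passed, Ifit1, Ifit3 and Usp18 (background 0.115%). That setting was chosen after the mean over the 6 genes was seen to be level on number 1, so nothing is read from it.

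The comparison of HY_high with OT1 uses the OT1 arrays of the preceding one and the HY_high arrays of the first, so it is no separate evidence. Usp18 was 9.67-fold higher in HY_high (log2 difference 3.27 ± 0.77 SE, n = 4 per group). Plscr1 had 2.47 ± 0.57, Ifit1 2.43 ± 0.74, Ifit3 2.33 ± 0.88, Isg15 2.26 ± 0.93 and Ifit2 2.08 ± 0.61. The median over the 6 genes was 2.38, beside 0.02 over all tested probe sets, and the differences lay between 4.24-fold and 9.67-fold. Many OT1 values are dim, and with intensities under 8 set to 8 the differences were 2.62 for Usp18, 1.86 for Isg15, 1.32 for Ifit3, 1.26 for Ifit1, 1.18 for Plscr1 and 0.61 for Ifit2.

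None of the 6 passed limma's adjusted p of 0.05 between HY_high and OT1 (background 0.138%), and 6 of 6 had an unadjusted p under 0.05 (background 2.82%). With the number as a block 4 passed, Ifit1, Isg15, Usp18 and Plscr1 (background 1.13%). Without OT1 array 1 the fit without the block called 2, Ifit3 and Usp18 (background 0.127%), with differences of 3.44 and 4.21, and the median over the 6 genes was 3.20. Plscr1 was the 1 gene without overlap between the groups (background 1.52%), and Usp18 and Plscr1 were higher within 4 of 4 numbers (background 10.4%). Since the genes were chosen with this comparison known as well, nothing is read from these counts.

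**Figure D2:**
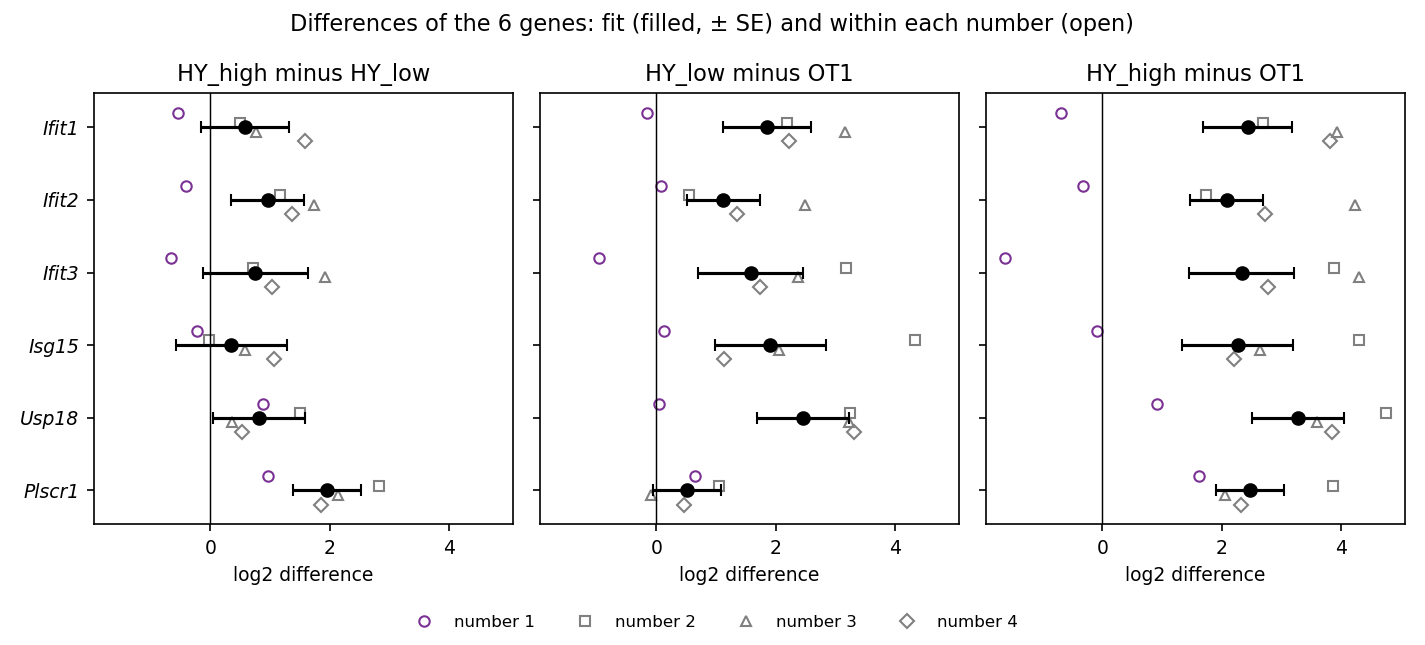
Log2 differences of the 6 genes in each comparison, with filled points and bars for the fit over 12 arrays and its SE, and open markers for the difference between arrays of the same number. In HY_high minus OT1 the marker of number 1 lies below 0 for the 3 Ifit genes and Isg15, between -1.63 and -0.09, and those of numbers 2 to 4 lie between 1.73 and 4.75 over all 6 genes.

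On the arrays numbered 1, the mean log2 intensity over the 6 genes was 4.64 in HY_high, 4.64 in HY_low and 4.68 in OT1. It was 4.96 in HY_high, 3.85 in HY_low and 1.43 in OT1 on the arrays numbered 2. On the arrays numbered 3 it was 5.80 in HY_high, 4.55 in HY_low and 2.35 in OT1, and on those numbered 4 it was 4.40 in HY_high, 3.16 in HY_low and 1.46 in OT1. This mean was therefore level between the groups on number 1 and ordered HY_high, HY_low, OT1 on numbers 2, 3 and 4. Single genes were not level on number 1, where HY_high minus OT1 ran from -1.63 for Ifit3 to 1.62 for Plscr1 on the log2 scale.

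By gene, this order held for 16 of 18 values on numbers 2 to 4, with Isg15 on number 2 and Plscr1 on number 3 as exceptions, and for 2 of 6 on number 1, Usp18 and Plscr1. Between 15.4% and 20.0% of all tested probe sets had that order on a given number. The median log2 difference of the 6 genes was -0.32 on number 1 and 0.94, 1.25 and 1.21 on numbers 2 to 4 for HY_high minus HY_low. For HY_low minus OT1 it was 0.06 on number 1 and 2.68, 2.43 and 1.54 on numbers 2 to 4.

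**Figure D3:**
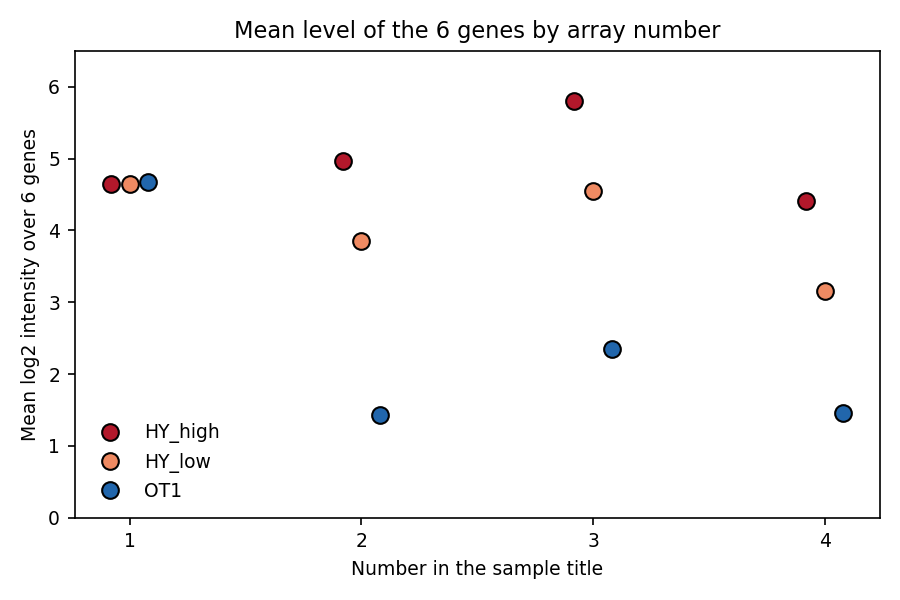
Mean log2 intensity over the 6 genes on each array, by the number in the sample title and coloured by group. The 3 arrays numbered 1 lie between 4.64 and 4.68, and on numbers 2 to 4 HY_high lies above HY_low and HY_low above OT1.

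OT1 array 1 was the highest OT1 array for 5 of the 6 genes, where 25.8% of all tested probe sets had their highest OT1 value on it. Against the geometric mean of OT1 arrays 2 to 4, it was 23.4-fold higher for Isg15, 21.7-fold for Ifit3, 13.3-fold for Usp18, 4.72-fold for Ifit1 and 3.71-fold for Ifit2. Most of the OT1 values it was set against lay under 8, and with a floor at 8 these folds were 16.1 for Isg15, 8.57 for Ifit3, 7.25 for Usp18, 1.58 for Ifit1 and 1 for Ifit2. For Plscr1 it was 1.70-fold higher, with OT1 arrays 3 and 4 at about the same level. Irf7, an interferon-induced transcription factor chosen after its values were seen, was at 80.4, 19.1, 27.1 and 13.2 on HY_high arrays 1 to 4. It was at 67.9, 2.39, 22.1 and 16.1 on HY_low arrays 1 to 4 and at 74.1, 2.67, 9.47 and 7.04 on OT1 arrays 1 to 4. Array 1 was thus the highest of each group for Irf7, which among the 6 genes held for Isg15 only.

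Other measures also differed by number. The share of values at 1 was 3.003% on HY_high array 2, 5.18% on HY_low array 2 and 19.0% on OT1 array 2, which bears on the dim genes there. It lay between 8.50% and 8.80% on the arrays numbered 1 and between 20.8% and 22.5% on those numbered 3 and 4. The part of the low end in the genes' differences was not tested. Between groups, the share at 1 and the log2 ratios of 3' to 5' control probe sets for Gapdh and actin gave exact permutation p from 0.514 to 1 (two-sided, 9 tests, adjusted p = 1, smallest possible p 0.0286). That test did not pair arrays by number. The Gapdh ratio lay between 2.95 and 3.27 on number 4 and between 5.60 and 6.26 on number 2. With such a spread between numbers, a high p does not show that the groups were alike.

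The summed intensity of 8 measured B cell markers, most of it Ighm, was highest on array 1 of each group, at 535 in HY_high, 637 in HY_low and 1013 in OT1. On arrays 2 to 4 it ran from 161 to 339 in HY_high, from 84.0 to 345 in HY_low and from 93.2 to 323 in OT1. Ighm was highest on array 1 of each group, as was Cd22, which lay under 8 on all 12 arrays. Cd79b was highest on array 1 in HY_high only, and was 11.6 on OT1 array 1 against 23.8 on OT1 array 3. Blk was highest on array 1 in HY_low only, and Ms4a1 and Cd79a in no group. Pax5 was highest on array 1 in both HY groups but lowest on OT1 array 1 (2.41). Ighm had geometric means of 200 in HY_high, 216 in HY_low and 244 in OT1, and Cd79b had 22.3, 12.9 and 11.4 in the same order. Blk had 14.6, 4.17 and 5.09, with a single high value of 153 on HY_high array 3, and Ebf1 was at 1 on 9 of 12 arrays.

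Of 6 plasmacytoid dendritic cell markers 4 were measured, and their sum was 54.5 on HY_high array 1, 77.7 on HY_low array 1 and 44.6 on OT1 array 1. It was 16.9 to 32.6 in HY_high, 22.2 to 38.9 in HY_low and 15.4 to 38.3 in OT1 on the other arrays. Its brightest genes were Cox6a2, with geometric means of 6.43 in HY_high, 17.1 in HY_low and 11.8 in OT1, and Irf8, with 17.8, 11.7 and 8.27 in the same order, while Tcf4 lay under 8 on all 12 arrays. Cox6a2 was highest on array 1 of each group, at 14.5 in HY_high, 61.8 in HY_low and 32.2 in OT1. Irf8 was highest on array 1 in HY_high only (36.2). It was 9.95 on HY_low array 1 against 23.7 on HY_low array 4, and 9.06 on OT1 array 1 against 9.92 on OT1 array 2. Tcf4 was highest on array 1 in no group. The sum of 20 macrophage and dendritic cell markers was lowest on array 1 of each group and ran from 201 to 608 in HY_high, from 158 to 624 in HY_low and from 139 to 348 in OT1. Ctss made up much of it, with geometric means of 296 in HY_high, 234 in HY_low and 148 in OT1. Cd14 had 7.98, 5.70 and 7.97 in the same order, Tyrobp had 16.2, 5.63 and 3.40, and Marco was at 1 on 11 arrays. Ctss was itself lowest on array 1 of each group, at 103 in HY_high, 93.4 in HY_low and 81.2 in OT1. Cd14 and Tyrobp were lowest on array 1 in no group, so the low sum on array 1 follows Ctss and need not hold for the other markers. The sum of 4 NK cell markers, mostly Klrd1, ran from 97.4 to 325 in HY_high, from 17.6 to 121 in HY_low and from 52.7 to 214 in OT1. That of 14 stromal markers ran from 53.6 to 85.0 in HY_high, from 59.4 to 94.5 in HY_low and from 48.9 to 83.2 in OT1, and those of granulocyte and erythroid markers stayed at or under 30.3. The part of these cells in the genes' levels was not tested.

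Interferon transcripts themselves were near the bottom of the scale. The 10 probe sets of Ifna genes, Ifnab and Ifnb1 had a median of 1.62 over all arrays and a highest value of 11.4, for Ifna5 on HY_low array 2. Those of Ifna2, Ifna5, Ifna7, Ifna9, Ifna15 and Ifnab, and 1 of Ifna4, carry a name that marks possible cross-reading of related genes. Ifng, which encodes the type II interferon, was between 1 and 3.63. Of 5 tested genes of the list of interferon genes, 0 were called by limma in any comparison, with 1 unadjusted p under 0.05 (Ifna4 in HY_low against OT1, lower). Ifna2, Ifna5, Ifna7 and Ifna9 had adjusted p = 1 in each.

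The wider interferon response was read from 119 further genes, 70 of them tested, in lists of GTPases, other effectors, signalling genes, interferons, Isg15 conjugation enzymes and other scramblases (of which 1 was measured and 0 tested). In HY_low against OT1 60 of the 70 had a positive log2 difference (median 0.51), where 51.0% of all tested probe sets did. In HY_high against OT1 58 did (median 0.67, background 51.4%), and in HY_high against HY_low 47 did (median 0.27, background 51.3%). Limma called 0 of the 70 in each comparison, with 8, 21 and 4 unadjusted p under 0.05 in that order, in either direction, where 2.65%, 4.08% and 2.96% of all tested probe sets had one. With the number as a block 9 rose in HY_high against OT1 (background 1.13%), 0 were called in HY_low against OT1, and 1 fell in HY_high against HY_low, where 0.115% of tested probe sets were called lower. The within-number medians of the 70 were also lowest on number 1 against OT1, at 0.05 for HY_low and 0.21 for HY_high, and lay between 0.56 and 1.01 on numbers 2 to 4 in both comparisons.

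Interferon-induced GTPases, which attack vacuoles and viral particles inside cells, had the highest median of the other lists in all 3 comparisons. All 10 tested GTPase genes had a positive difference in HY_high against OT1 (median 1.38), and 3 rose with the block. Iigp1, with geometric means of 11.7 in HY_high and 1.53 in OT1, differed by 2.93 on the log2 scale (0.0586 as limma's adjusted p, or 0.00624 with the block). Gbp3 had 22.1 in HY_high and 7.51 in OT1 (1.56, adjusted p = 0.415, or 0.0305 with the block), and Igtp had 51.3 in HY_high and 19.0 in OT1 (1.43, adjusted p = 0.694, or 0.0134 with the block). Mx2 had 9.35 in HY_low and 3.94 in OT1 (1.25, adjusted p = 1, or 0.207 with the block), and Irgm2 had 89.3 in HY_high and 32.5 in OT1 (1.46, adjusted p = 0.694, or 0.0754 with the block).

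Among 36 tested antiviral effectors of other kinds, 30 had a positive difference in HY_high against OT1 (median 0.66), and 5 rose with the block. Ifih1, a sensor of double-stranded RNA, had 30.3 in HY_high and 7.11 in OT1, which is 2.09 on the log2 scale (limma's adjusted p = 0.307, or 0.0103 with the block). Trim30a differed by 2.24 (adjusted p = 0.586, or 0.00654 with the block) and Ifi204, a DNA sensor, by 1.54 (0.596, or 0.0154). Cmpk2, a mitochondrial nucleotide kinase, differed by 2.15 (0.444, or 0.0213) and Ifi27l2a by 1.62 (0.444, or 0.0342), both higher in HY_high within 3 of 4 numbers. Ccl5, a chemokine, had 482 in HY_high and 60.3 in HY_low (log2 difference 2.998, adjusted p = 1, or 0.102 with the block). Eif2ak2, the kinase that halts translation on double-stranded RNA, had 2.01 in HY_high and 3.72 in HY_low (-0.89, adjusted p = 1). Oas1g, the nearest relative of Oas1a with a probe set of its own, was between 1 and 4.46 on all arrays.

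Of 16 tested genes of interferon sensing and signalling, 12 had a positive difference in HY_high against OT1 (median 0.54), and Irf9 rose with the block. Irf9, a DNA-binding factor of the interferon response, had 114 in HY_high, 103 in HY_low and 49.0 in OT1. Its log2 difference from OT1 was 1.22 in HY_high (limma adjusted p = 0.942, or 0.0275 with the block) and 1.07 in HY_low (adjusted p = 1, or 0.201). Irf5 and Jak2 had 1.56 and 1.04 in HY_high against OT1 (adjusted p = 0.942 and 1). Irf5 was near the bottom of the scale, with geometric means of 4.61 in HY_high and 1.56 in OT1. Socs3, an inhibitor of cytokine receptor signalling, fell with the block by 1.86 in HY_high against HY_low (adjusted p = 0.251, or 0.00689 with the block). Its geometric means were 21.7 in HY_high, 78.9 in HY_low and 29.9 in OT1, and HY_low against OT1 gave 1.40 (adjusted p = 1, or 0.0853 with the block). The probe sets of Socs3, Ifi204 and Ube2e1 also carry a name that marks possible cross-reading. Ifngr1 had a difference of 0.83 and Ifnar2 of -0.96 between the doses (adjusted p = 1 for both). A second, dimmer probe set of Ifnar2 had 3.40, 5.37, 11.1 and 5.71 on HY_high arrays 1 to 4. It had 8.08, 1.78, 5.31 and 9.01 on HY_low arrays 1 to 4, so the lower level in HY_high did not hold on numbers 2 and 3.

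Of the enzymes that attach Isg15 to proteins, 3 were tested and 0 were called in any comparison, with or without the block, and none had an unadjusted p under 0.05. Uba7, the activating enzyme, had geometric means of 27.9 in HY_high, 32.2 in HY_low and 21.0 in OT1. Trim25, a ligase, had 64.1 in HY_high, 61.9 in HY_low and 39.8 in OT1, and Ube2e1, a conjugating enzyme, had 18.7, 8.93 and 9.78 in the same order.

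**Figure D4:**
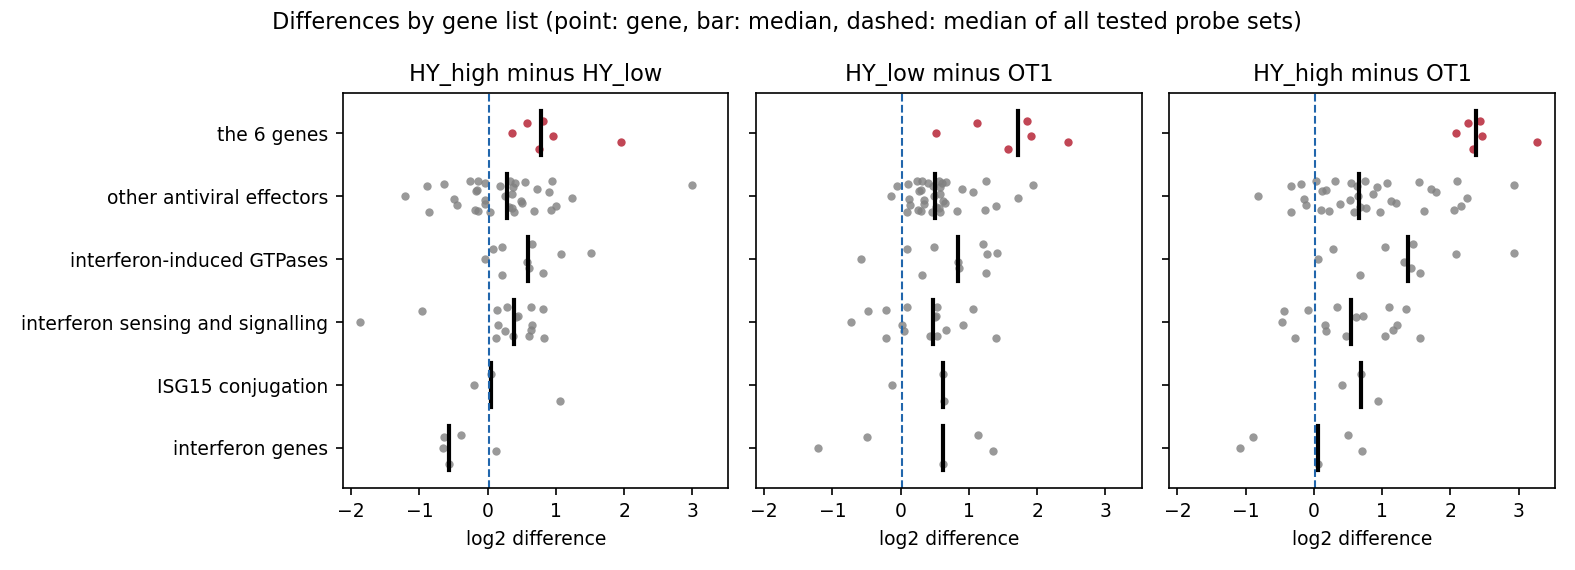
Log2 difference of each tested gene by list in the 3 comparisons, with a bar at the list's median and a dashed line at the median of all tested probe sets. The 6 genes (red) have medians of 0.79, 1.72 and 2.38 from left to right, and the GTPases have 0.59, 0.84 and 1.38.

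The 6 genes varied together over the arrays, with Pearson correlations between 0.45 and 0.89 over their 15 pairs (median 0.77, n = 12 arrays that share group and number). After subtracting the mean of each number they lay between 0.65 and 0.94 (median 0.87). Of 7712 other tested probe sets with 1 symbol, Cmpk2 was most like the mean of the 6, with Pearson's r of 0.97 and Spearman's rho of 0.94 over 12 arrays. Cmpk2 was at 25.2, 37.8, 61.3 and 13.9 on HY_high arrays 1 to 4, at 19.0, 18.9, 26.5 and 7.13 on HY_low arrays 1 to 4, and at 25.4, 4.24, 4.98 and 3.87 on OT1 arrays 1 to 4, so it shared the high OT1 array 1. Without OT1 arrays 2 and 4, the farthest from the median of the mean level, its r was 0.96.

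The next genes by this measure were Gm9706, an annotated pseudogene read by a probe set whose name marks possible cross-reading of related genes (r = 0.93), Ifih1 (0.91), Trafd1 (0.89), Capn3 (0.88), Synj2 (0.87), Tpd52 (0.87), Pml (0.86), Irf9 (0.86) and Anxa4 (0.86). Without the same arrays r lay between 0.58 for Irf9 and 0.85 for Ifih1 and Gm9706. Whether the probe set of Gm9706 also reads Isg15, which is itself part of the mean, was not tested. Its r is therefore not read as that of a separate gene. Capn3 and Synj2 lay under 8 on all 12 arrays. Of the 10, Cmpk2, Ifih1, Pml and Irf9 belong to the interferon lists. These genes were picked as the best of 7712 probe sets, so no p is given.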

How the data were processed

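RNA of RTOC thymocytes was read on 12 Affymetrix mouse arrays, 4 per group. The authors deposited 1 table of linear intensity values. Background correction, summary and scaling are not given in the sources used here. Precision is limited by the 4 arrays a group. The arrays were used as deposited on the log2 scale, and the lowest value is 1.

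After 66 control probe sets were left out, 8695 of 12422 were tested, those with a mean log2 value above the 30th percentile (an intensity of 1.76). Symbols came from the platform annotation, updated by gene ID (10833 probe sets had 1 gene, 396 several, 1193 none). A gene with several probe sets was read by its brightest tested one. Limma 3.58.1 (R 4.3.3) fitted 1 mean per group over all 12 arrays with intensity-trended moderation, two-sided, with Benjamini-Hochberg adjustment over all tested probe sets. The fit was tested on simulated data for HY_high against HY_low, with arrays drawn independently of number. It called 48 of 100 probe sets with a true log2 difference of 2, 96 of 100 with 4, and 5 of 8495 unchanged ones. A difference near 2 that was not called is therefore no sign of absence.

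Deviations from group means correlated between 0.341 and 0.593 for the 12 pairs of arrays with the same title number, and between -0.40 and 0.163 for the 36 other pairs. On this evidence, since no label says what a number marks, the numbers were treated as pairs and a blocked fit was added. No pair of arrays shared more than 0.127% of values above 8.

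The genes and lists were chosen with earlier results of these data known. The genes named are all members, the 10 genes most like their mean level, from each interferon list those past the threshold and the 3 smallest p per comparison, and the 3 brightest tested markers of other cell types. Genes called with the block only, Irf7, Oas1g, and other markers were added after their values were seen. Alternatives were the block, no filter, a floor at 8, quantile normalization, median scaling, array weights, and leaving out each array. Leaving out number 1 of each group was chosen after seeing the data.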

Additional observations from a re-analysis of the deposited data

Results flagged for a closer look

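Plscr1 on OT1 array 2 was at 1, the lowest value of the table, while the other 3 OT1 arrays lay between 4.79 and 4.90. Its gap to the nearest array took up 0.986 of the range of the group on the log2 scale, more than Dixon's 95% critical value for 4 samples allows. Of 21 groups looked at, this was the 1 that passed, and chance passes about 1 in 20.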

How the results depend on the processing

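The median log2 difference of the 6 genes stayed above 0 under all 20 alternatives, between 0.44 and 1.11 for HY_high against HY_low, between 0.67 and 2.55 for HY_low against OT1 and between 1.29 and 3.26 for HY_high against OT1. For the 70 other interferon genes it lay between 0.12 and 0.35, 0.30 and 0.63, and 0.47 and 0.81 in the same order. Some alternatives could not move these medians, namely the block over all arrays, no filter, and leaving out an array of the group outside the comparison. The 6 genes were also selected on these same values. Counts of calls did change. Of the 6 genes, 0 were called in the fit given in the text; HY_high against HY_low gave 1 with the replicate block and 1 with the floor at 8. HY_low against OT1 gave 3 with the block and without number 1 of each group (an alternative chosen after seeing the data). HY_high against OT1 gave 4 with the block, 1 with the floor at 8, 4 with array weights, 1 without number 1, 6 with the block and without number 1, and 0 to 2 when single arrays were left out. Of the 70 other genes, 0 were called in that fit; HY_high against HY_low gave 1 with the block, also without number 1. HY_high against OT1 gave 9 with the block, 8 with array weights, 13 with the block and without number 1, and 0 to 1 when single arrays were left out (1 without HY_high array 1 or HY_low array 2). The blocked fit changed no other call. The cause of these changes was not tested. In HY_high against OT1, 1.13% of all tested probe sets were called higher with the block. No such share is given for that comparison with the floor at 8, with array weights or with number 1 left out. Nothing is read from the counts in those settings.

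Leaving out single arrays turned the sign of small differences between groups in the share of values at 1, which lay between -3.87 and 2.90 percentage points (HY_high against HY_low), -5.76 and 0.35 (HY_low against OT1) and -6.49 and 0.11 (HY_high against OT1). The Gapdh 3' to 5' ratio lay between -0.76 and 0.25, -0.38 and 0.72, and -0.63 and 0.47 in the same order, and the actin ratio between -0.33 and 0.25 in HY_high against HY_low. Low signal limits Ifit2 in all groups, Plscr1 in HY_low, and in OT1 all 6 genes, each of which lay under 8 on at least 2 OT1 arrays.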
